A study of Mus musculus with 7 samples.

Results

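The genes described here are 10 activity-dependent immediate early genes, which are the transcription factor genes *Egr1*, *Egr2*, *Egr3*, *Egr4*, *Fos*, *Fosb*, *Junb*, *Npas4* and *Nr4a1* and the synaptic effector gene *Arc*. They were chosen by name from what is known of the family, by a rule that uses no measured value, although earlier results of these data were known when they were chosen. All 10 stood in the expression table of 24346 genes, and all 10 reached the minimum average of 1 FPKM that was asked of the 12988 genes tested. FPKM are fragments scaled to transcript length and to the mapped fragments of the library, which puts genes and animals on a common scale. The comparison between animals still depends on how the libraries are scaled, as given below. Bulk RNA-seq was performed on the cerebral cortex of 4 CrT-/y and 3 CrT+/y male mice, with 1 library per animal. The CrT-/y males are hemizygous for a deletion of several exons of *Slc6a8*, the X-linked gene of the creatine transporter (CrT), and lack the transporter in the whole body, so the cortex was compared in a model in which every tissue carries the deletion. The CrT+/y animals were their wild-type littermates. All 7 mice were on a C57BL/6J background, were 100 days old and were killed in the same late-morning window of the light phase, and no stimulus or drug is named for them. The comparison asks which of these genes differ in the cortex of animals that lack the creatine transporter.

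Immediate early genes are transcribed within minutes when a neuron fires or receives strong synaptic input, from factors that are already present in the cell and without new protein synthesis. Calcium entry activates kinases that phosphorylate CREB, which binds cAMP response elements (CREs), and ternary complex factors, which act with SRF at CArG boxes. Most of the early transcripts and proteins are short-lived, so that their level in the cortex reflects the recent past of the animal, and they switch on later genes that adjust synapses. *Egr3* differs from several of the others in that its product accumulates later and lasts longer after a stimulus.

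*Slc6a8* was lower in every CrT-/y animal (12.4 to 15.7 FPKM) than in every CrT+/y animal (28.0 to 32.3 FPKM) (log2 change -1.05, limma adjusted p = 0.0024). Reads from exons outside the deletion are still counted for this gene. Per library, 17612 to 17821 genes were detected above 0 FPKM in CrT-/y and 17207 to 17477 in CrT+/y animals, so that these ranges did not overlap. Excitatory neuron markers summed to 1807 to 1996 FPKM in CrT-/y and 1991 to 2540 FPKM in CrT+/y animals. Of these 7, 3 were called lower in CrT-/y animals, *Neurod6* and *Nrgn* among them. Among 5 inhibitory markers, 2 (*Gad1* and *Dlx1*) were called higher. *Lhx6* went the other way, at 6.79 to 7.93 FPKM in CrT-/y and 7.96 to 8.64 FPKM in CrT+/y animals, but was not called. None of the 6 pan-neuronal markers was called. Over all tested genes, 7.25% were called lower and 2.9% higher. Of 5 endothelial markers, 2 (*Flt1* and *Pecam1*) were called lower in CrT-/y animals. Another 2 had a fitted change above 0, and for 1 of them every CrT-/y animal lay above every CrT+/y animal, without a call. The summed level overlapped (97.4 to 112.6 FPKM in CrT-/y and 101.8 to 118.2 FPKM in CrT+/y animals). The libraries also differed in transcripts of neighbouring tissue. The summed striatal markers ran from 75.2 FPKM in CrT+/y animal 1 to 327.4 FPKM in CrT-/y animal 1, and the choroid plexus and ependyma markers reached 393.7 FPKM in CrT+/y animal 2 against 6.85 to 53.6 FPKM elsewhere. All 6 striatal markers had fitted changes above 0 (median log2 change 0.69), although none was called. The 4 olfactory bulb markers summed to 4.70 to 11.7 FPKM in CrT-/y and 1.42 to 4.37 FPKM in CrT+/y animals, so that this sum, unlike the striatal one, did not overlap between genotypes. None of the 4 was at 0 in any animal, 2 were tested and *Cdhr1* was called higher (log2 change 1.51, limma adjusted p = 0.079). In bulk cortex, fewer cells of a type and less RNA per cell cannot be told apart.

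One of the 10 genes, *Egr3*, was lower in the CrT-/y cortex, and none was higher. The lower level was seen in each of the 4 CrT-/y animals, whose mean was 63.4% of that of CrT+/y animals. No difference was called for the other 9, whose genotypes overlapped and which varied widely between animals of the same genotype. The count of 1 in 10 was close to the rate over all tested genes, of which 10.1% were called (7.25% lower and 2.9% higher, limma, adjusted p under 0.1 over all 12988 genes). The fitted changes of 8 of the 10 genes lay below 0, with a median log2 change of -0.17, whereas 58.2% of all tested genes lay below 0 and their median was -0.03. Over all genes the split of calls depended on the scaling, with 377 higher and 941 lower in the FPKM as deposited and 604 higher and 499 lower after upper quartile scaling. *Egr3* was called lower under each of the 20 alternative settings.

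**Figure D1:**
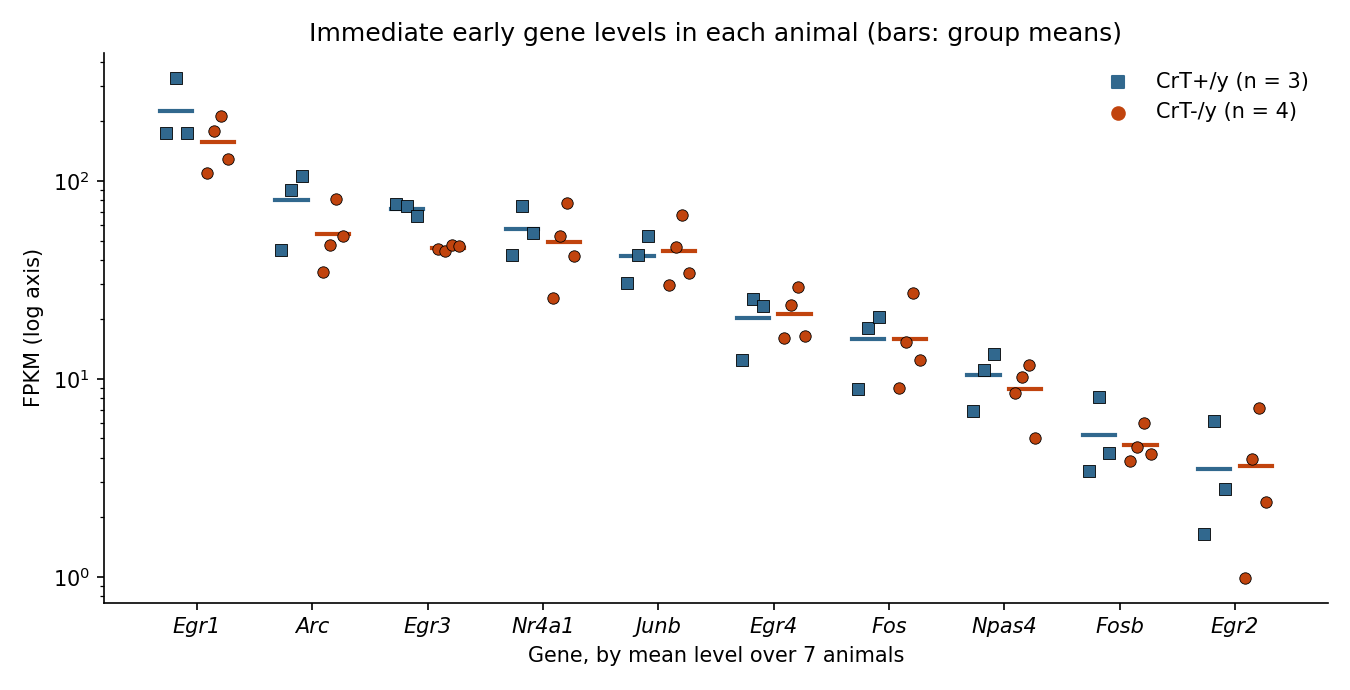
FPKM of each of the 10 immediate early genes (vertical axis, log scale) in the 4 CrT-/y and 3 CrT+/y animals, where each point is 1 animal and each bar the mean of its genotype. The 4 CrT-/y points of Egr3 (44.4 to 47.5 FPKM) lie below its 3 CrT+/y points (66.3 to 76.6 FPKM), while the points of the other 9 genes overlap.

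The Egr genes encode zinc finger transcription factors that bind the same GC-rich element, and the activity of several of them is limited by the NAB co-repressors. *Egr3* (chr14:70077203-70082614, plus strand, 2 exons, GRCm38) acts downstream of the first Egr response and is needed for normal synaptic plasticity and memory. It measured 45.1, 44.4, 47.5 and 46.7 FPKM in CrT-/y animals 0, 1, 2 and 3, and 76.6, 74.5 and 66.3 FPKM in CrT+/y animals 1, 2 and 3. The lowest wild-type value stood well above the highest CrT-/y value, and both genotypes were tightly grouped. The means were 45.9 ± 1.44 FPKM (SD, n = 4) and 72.5 ± 5.40 FPKM (SD, n = 3), a level 36.6% lower in CrT-/y animals. On the log2(FPKM + 0.1) scale, on which all changes below are given, the change was -0.65 (SE 0.062, 95% interval -0.79 to -0.51), with an adjusted p of 0.0047 in the moderated test of limma across all genes. The exact two-sided permutation test over the 35 ways of splitting 4 and 3 animals gave p = 0.0286, the smallest it can give. Among all tested genes, 15% had every CrT-/y animal below every CrT+/y animal and 6.57% had every one above (21.6% in either direction). Across the 20 alternatives the change lay between -0.72 and -0.59 and the adjusted p between 0.0015 and 0.045, and *Egr3* kept its call when any 1 of the 7 animals was left out. The olfactory bulb marker sum given above did not overlap between the genotypes. Nor did the inhibitory marker sum, at 242.8 to 256.0 FPKM in CrT-/y and 201.6 to 233.9 FPKM in CrT+/y animals. *Gad1* alone gave 98.4 to 134.6 FPKM of this sum, and *Lhx6* was lower in every CrT-/y animal. The excitatory sums overlapped narrowly (up to 1996 FPKM in CrT-/y and from 1991 FPKM in CrT+/y animals), and *Nrgn* alone gave 1077 to 1667 FPKM of them. The part of these marker differences in the change of *Egr3* was not tested.

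*Egr1* (chr18:34859823-34864984, plus strand, 2 exons), also known as Zif268 and Krox24, is a widely used marker of recent neuronal activity and was the most abundant of the 10 genes. It measured 110.2, 178, 214 and 128 FPKM in CrT-/y animals 0 to 3, and 174, 331 and 174 FPKM in CrT+/y animals 1 to 3. CrT-/y animals 1 and 2 lay above both of the lower wild-type animals, and CrT+/y animal 2 stood far above all others. The means were 158 ± 47.3 FPKM (SD, n = 4) and 226 ± 90.9 FPKM (SD, n = 3). The change of -0.50 (SE 0.27, 95% interval -1.11 to 0.11) did not pass the test (limma adjusted p = 0.28), and its interval holds both 0 and the change of *Egr3*.

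*Egr4* (chr6:85511121-85513589, minus strand, 2 exons) measured 16.1, 23.6, 29.1 and 16.4 FPKM in CrT-/y animals 0 to 3, whereas CrT+/y animals 1 to 3 gave 12.4, 25.2 and 23.2 FPKM. Its means of 21.3 ± 6.27 FPKM (SD, n = 4) and 20.3 ± 6.89 FPKM (SD, n = 3) gave a change of 0.09 (SE 0.27, 95% interval -0.52 to 0.70, limma adjusted p = 0.86). *Egr2* (chr10:67535475-67542188, plus strand, 2 exons), or Krox20, which is also the master regulator of peripheral myelination, was the least abundant member and the most variable. It measured 0.991, 3.93, 7.15 and 2.39 FPKM in CrT-/y animals and 1.65, 6.12 and 2.78 FPKM in CrT+/y animals, a 7.22-fold range over all 7. CrT-/y animals 0 and 2 held the lowest and the highest value, so that the wild-type values lay between them. The change of -0.08 had an SE of 0.60 and a 95% interval of -1.44 to 1.28 (limma adjusted p = 0.95), too wide to place its level in either direction. Of these paralogs, *Egr3* alone was called, but the differences between the change of *Egr3* and those of *Egr1*, *Egr2* and *Egr4* were not tested.

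*Fos*, *Fosb* and *Junb* encode subunits of AP-1, a dimer of a Fos and a Jun family protein. *Fos* (chr12:85473890-85477273, plus strand, 4 exons) measured 8.97, 15.4, 27.0 and 12.5 FPKM in CrT-/y animals 0 to 3 and 8.86, 18.1 and 20.6 FPKM in CrT+/y animals 1 to 3. Each genotype held animals near the bottom and near the top of this range, and the means of 16.0 ± 7.83 FPKM (SD, n = 4) and 15.8 ± 6.18 FPKM (SD, n = 3) were close to each other. The change was -0.02 (SE 0.37, 95% interval -0.86 to 0.82, limma adjusted p = 0.98), and its sign depended on the scaling, with 0.031 after upper quartile scaling. *Fosb* (chr7:19302696-19310051, minus strand, 4 exons), whose truncated ΔFosB product builds up under repeated stimulation, measured 3.83, 4.50, 6.01 and 4.17 FPKM in CrT-/y and 3.41, 8.07 and 4.22 FPKM in CrT+/y animals. The wild-type animals held its lowest and its highest value, and the change was -0.10 (SE 0.26, 95% interval -0.69 to 0.50, limma adjusted p = 0.85). Values per gene do not separate the ΔFosB transcript from the full-length one. *Junb* (chr8:84974484-84978718, minus strand, 1 exon) measured 29.9, 46.1, 67.5 and 34.3 FPKM in CrT-/y and 30.5, 42.1 and 52.8 FPKM in CrT+/y animals, with the lowest and the highest value both in CrT-/y animals. Its change was 0.05 (SE 0.27, 95% interval -0.55 to 0.66, limma adjusted p = 0.92).

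*Arc* (chr15:74669083-74672570, minus strand, 3 exons) encodes a protein that promotes the removal of AMPA receptors from synapses and forms virus-like capsids. It measured 34.7, 47.2, 80.7 and 52.4 FPKM in CrT-/y animals 0 to 3 and 44.6, 90.4 and 106.3 FPKM in CrT+/y animals 1 to 3. The top pair of values came from wild-type animals, but CrT+/y animal 1 lay below 3 of the 4 CrT-/y animals. The means were 53.8 ± 19.4 FPKM (SD, n = 4) and 80.4 ± 32.0 FPKM (SD, n = 3), and the change of -0.55 (SE 0.32, 95% interval -1.28 to 0.18) did not pass the test (limma adjusted p = 0.32). With a fitted change near that of *Egr3*, *Arc* had an SD between animals of 0.57 on the log2 scale, against 0.08 for *Egr3*.

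*Npas4* (chr19:4984355-4990316, minus strand, 6 exons), a bHLH-PAS factor that responds selectively to calcium entry and shapes inhibitory synapses, measured 8.52, 10.2, 11.7 and 5.00 FPKM in CrT-/y and 6.86, 11.1 and 13.3 FPKM in CrT+/y animals. Its change was -0.24 (SE 0.29, 95% interval -0.91 to 0.42, limma adjusted p = 0.64). *Nr4a1* (chr15:101254269-101274795, plus strand, 8 exons), or Nur77, an orphan nuclear receptor, measured 25.6, 52.9, 77.1 and 41.5 FPKM in CrT-/y and 42.2, 74.7 and 54.4 FPKM in CrT+/y animals. Its lowest and highest values both came from CrT-/y animals, and the change was -0.28 (SE 0.33, 95% interval -1.02 to 0.45, limma adjusted p = 0.62). In the exact two-sided permutation test, the 9 genes other than *Egr3* gave p between 0.257 and 1.

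**Figure D2:**
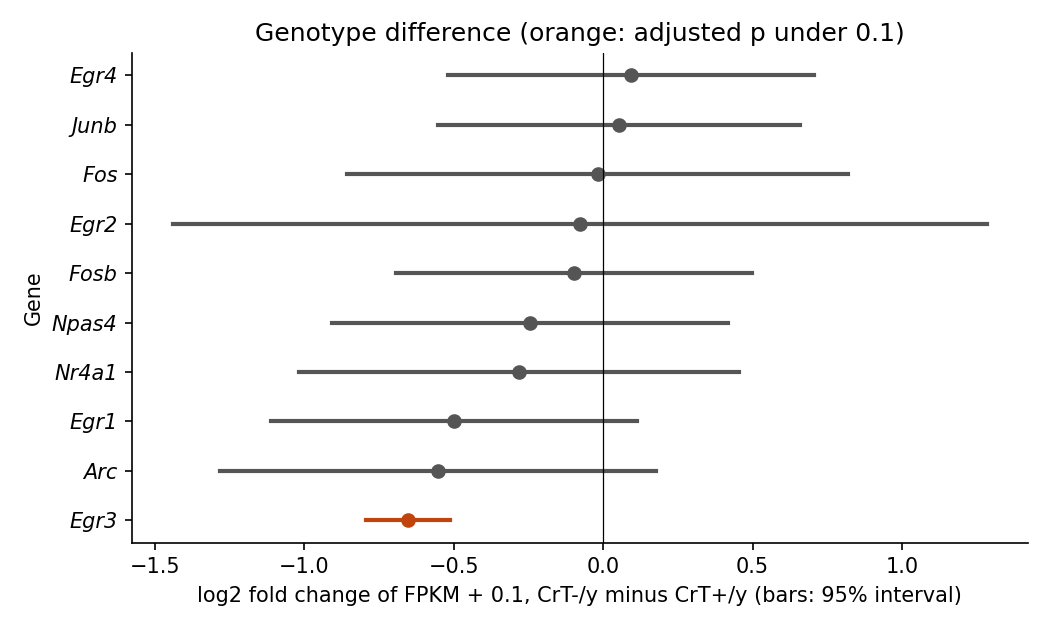
Log2 change of FPKM + 0.1, CrT-/y minus CrT+/y (horizontal axis), of the 10 genes, with points for the fitted change and bars for the 95% interval of limma. Orange marks genes called at an adjusted p under 0.1, and grey marks the others. The interval of Egr3 (-0.79 to -0.51) excludes 0, and those of the other 9 include it.

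The intervals of the 9 uncalled genes show what 4 and 3 animals could resolve. All 9 included 0. A change of the size seen for *Egr3* lay inside the intervals of 7 of them (*Egr1*, *Egr2*, *Fos*, *Fosb*, *Arc*, *Npas4* and *Nr4a1*) and outside those of *Egr4* and *Junb*. A missed threshold therefore does not show that these genes were at the same level in both genotypes.

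By mean level over the 7 animals, *Egr1* came first with 187 FPKM, followed by *Arc* with 65.2, *Egr3* with 57.3, *Nr4a1* with 52.6 and *Junb* with 43.3 FPKM. *Egr4* (20.9 FPKM), *Fos* (15.9 FPKM), *Npas4* (9.53 FPKM), *Fosb* (4.89 FPKM) and *Egr2* (3.57 FPKM) followed. *Egr1* stood above *Arc* in all 7 animals, and each step from *Junb* down to *Fosb* was also kept in all 7. The neighbours *Arc* and *Egr3* kept their order in 5 of 7 animals, *Egr3* and *Nr4a1* in 4, and *Nr4a1* and *Junb* as well as *Fosb* and *Egr2* in 6, so that the ranks of these genes were not separated beyond the spread between animals.

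The 9 genes other than *Egr3* varied more between animals of the same genotype than most genes, and *Egr3* varied little. After each genotype's mean was removed, the SD on the log2 scale was 0.46 to 1.07 for the 9 genes, against a median of 0.11 over all tested genes. These SDs ranked between the 98.1 and the 99.7 percentile of all 12988 genes, and *Egr3* ranked at the 24.5 percentile. Between the lowest and the highest of the 7 animals, the 9 genes spanned 2.25-fold (*Junb*) to 7.22-fold (*Egr2*). The difference in spread between *Egr3* and the others is a description of these 7 libraries and was not tested.

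**Figure D3:**
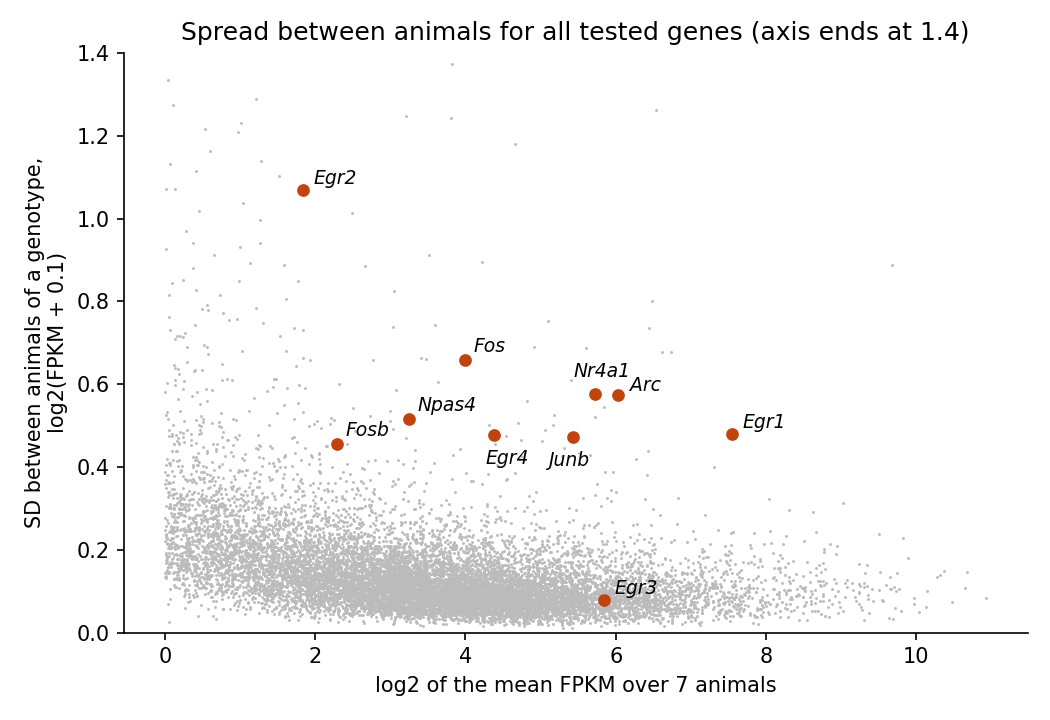
SD between animals of the same genotype on the log2(FPKM + 0.1) scale (vertical axis) against mean FPKM (horizontal axis, log scale), with grey for all 12988 tested genes and colour for the 10 immediate early genes. All but Egr3 lie near the upper edge, at SDs of 0.46 to 1.07, and Egr3 lies within the bulk of genes at 0.08.

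The same animals were high or low for nearly all of the 10 genes. CrT-/y animal 2 had the highest level among the CrT-/y animals for 10 of 10 genes, whereas 22.04% of all tested genes were highest in it. CrT-/y animal 0 was lowest for 8 of 10 (22.9% of all tested genes), the exceptions being *Egr3*, lowest in animal 1, and *Npas4*, lowest in animal 3. CrT+/y animal 1 was the lowest wild-type animal for 9 of 10 genes (27.4% of all tested genes) and the highest for *Egr3*. In the other wild-type animals, *Egr1*, *Egr2*, *Egr4*, *Fosb* and *Nr4a1* peaked in animal 2, and *Fos*, *Junb*, *Arc* and *Npas4* peaked in animal 3.

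Measured against the genotype mean, the median deviation of the 9 genes other than *Egr3* was -0.50, 0.19, 0.65 and -0.25 on the log2 scale in CrT-/y animals 0 to 3 and -0.54, 0.38 and 0.26 in CrT+/y animals 1 to 3. All 9 lay above the mean in CrT-/y animal 2 and CrT+/y animal 2, and all 9 lay below it in CrT+/y animal 1. *Egr3* deviated by -0.12 to 0.08 and did not follow these animals.

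**Figure D4:**
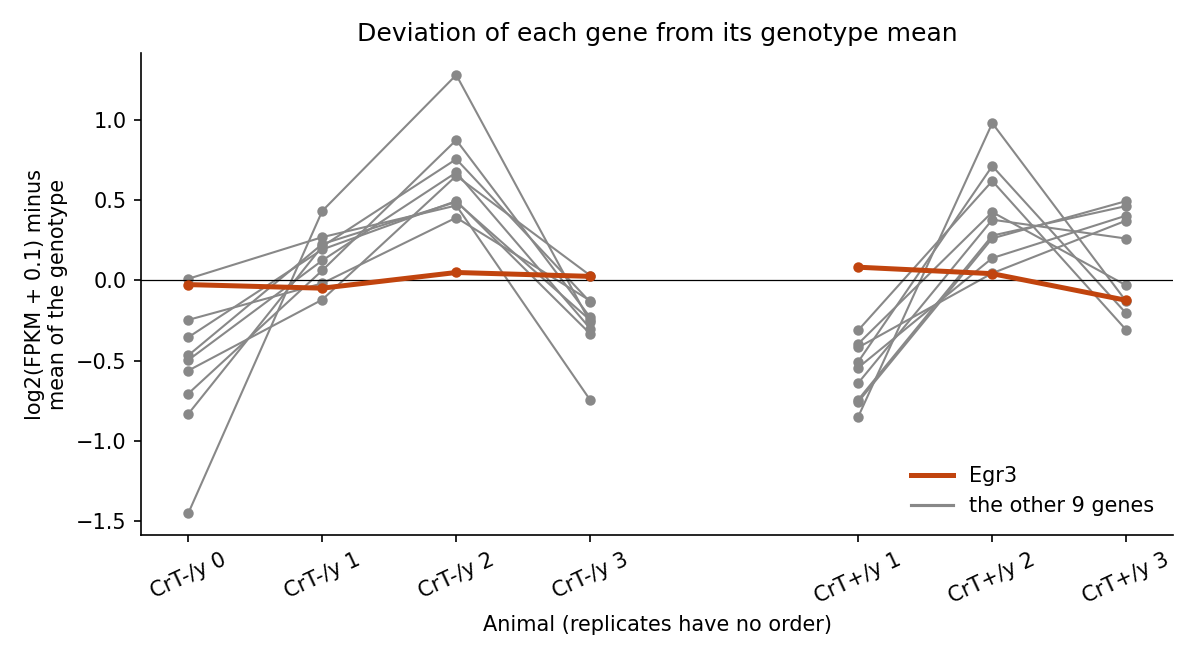
Deviation of each gene from its genotype mean on the log2(FPKM + 0.1) scale (vertical axis) in each of the 7 animals (horizontal axis, in no order), with 1 line per gene joining its values for ease of reading. The 9 genes other than Egr3 lie above 0 in CrT-/y animal 2 and below 0 in CrT+/y animal 1, while Egr3 stays between -0.12 and 0.08.

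Across the 7 animals, with genotype means removed, the 36 pairs among these 9 genes had Pearson correlations of 0.48 to 0.99 (median 0.81), all positive. The closest pair was *Egr2* and *Nr4a1* (0.99), followed by *Fos* and *Junb* (0.97) and *Fos* and *Arc* (0.96). *Fosb* and *Npas4* formed the loosest pair (0.48). The 9 pairs with *Egr3* ran from -0.49 to 0.31, with a median of -0.21. Spearman correlations of the 36 pairs were 0.43 to 1, and without CrT-/y animals 2 and 0, the pair farthest from the middle of the shared profile, all 36 Pearson correlations stayed positive (0.26 to 1.00, median 0.74). These points share libraries and number 7, so the correlations describe the libraries and carry no test.

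Sequences upstream of the start sites are shown for 4 of the genes that varied together, because CREB acts on several immediate early genes through the CRE. RefSeq promoter sequences (GRCm38.p6) were matched for 7 of the 10 genes (*Egr2*, *Egr4*, *Fos*, *Fosb*, *Junb*, *Npas4* and *Nr4a1*). Each run below holds the 250 bases before the start site, 5′ to 3′ on the gene's strand, with the CRE half-site in capitals, read as TGACG or, on the other strand, as CGTCA. They come from chr12:85473640-85473889 for *Fos*, chr8:84978749-84978998 for *Junb*, chr6:85513590-85513839 for *Egr4* and chr15:101266596-101266845 for *Nr4a1*, the plus strand for *Fos* and *Nr4a1* and the minus strand for *Junb* and *Egr4*.
Fos: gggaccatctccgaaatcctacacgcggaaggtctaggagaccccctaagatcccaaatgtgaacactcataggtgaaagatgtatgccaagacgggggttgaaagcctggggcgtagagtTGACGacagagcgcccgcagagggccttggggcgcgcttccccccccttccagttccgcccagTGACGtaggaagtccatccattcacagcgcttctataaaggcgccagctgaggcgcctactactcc
Junb: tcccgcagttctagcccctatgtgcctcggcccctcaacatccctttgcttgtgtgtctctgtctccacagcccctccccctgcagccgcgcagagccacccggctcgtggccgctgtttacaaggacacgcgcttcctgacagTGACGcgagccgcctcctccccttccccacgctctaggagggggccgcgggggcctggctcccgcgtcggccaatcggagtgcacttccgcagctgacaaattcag
Egr4: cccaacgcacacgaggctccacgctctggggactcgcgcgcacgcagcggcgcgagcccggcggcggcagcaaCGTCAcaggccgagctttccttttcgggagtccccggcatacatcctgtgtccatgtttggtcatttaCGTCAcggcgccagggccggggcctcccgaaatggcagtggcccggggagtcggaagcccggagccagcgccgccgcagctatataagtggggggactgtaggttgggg
Nr4a1: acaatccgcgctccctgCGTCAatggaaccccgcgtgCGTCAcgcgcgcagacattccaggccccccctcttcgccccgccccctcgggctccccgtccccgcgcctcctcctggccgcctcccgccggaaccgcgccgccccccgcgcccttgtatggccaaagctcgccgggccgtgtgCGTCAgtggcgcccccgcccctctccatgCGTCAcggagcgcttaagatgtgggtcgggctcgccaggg

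The half-site began 129 and 66 bases before the start of *Fos*, 106 bases before that of *Junb*, 177 and 109 bases before that of *Egr4*, and 233, 213, 69 and 40 bases before that of *Nr4a1*. It was also found 60 bases before the start of *Fosb*, 179 and 169 bases before the RefSeq start used for *Npas4* and before 3 of the 5 annotated starts of *Egr2*. All 250 bases of the *Npas4* entry lie within exons of the gene in GENCODE, which places its start farther upstream. All 7 genes thus held TGACG on one strand or the other, against 19.8% of the 27025 genes with a promoter entry. The full palindrome TGACGTCA was in none of the 7 (1.77% of genes), and the AP-1 element TGANTCA was in none (7.82% of genes). The CArG box was matched before *Egr2* (1.62% of genes), and the EGR element GCGNGGGCG before *Fosb* and *Nr4a1* (5.33% of genes). A match of letters is not a measured binding site, and no binding data were analysed here.

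Other early response genes took part in the same animal-to-animal pattern. Of 49 further genes of this class, 46 were tested (*Fosl1*, *Atf3* and *Maff* were below the filter on low values). With the profile averaged over the 10 genes, 21 of the 46 (45.7%) had a correlation above 0.8 over the 7 animals, against 2.57% of all tested genes, and the median was 0.79 against -0.07. The closest were *Dusp4* (0.97), a MAP kinase phosphatase, *Sik1* (0.96), a salt-inducible kinase that restrains CREB coactivators, *Klf4* (0.95), *Spry4* (0.93) and *Dusp1* (0.92). *Dusp1*, which encodes another MAP kinase phosphatase, measured 17.3, 23.2, 34.4 and 22.7 FPKM in CrT-/y animals 0 to 3 and 19.4, 28.6 and 30.7 FPKM in CrT+/y animals 1 to 3. Like most of the 10 genes, it was highest in CrT-/y animal 2 and lowest in animal 0 and in CrT+/y animal 1 within the genotypes. The AP-1 partner genes *Jun* (0.37) and *Jund* (0.03) followed the profile less closely, and *Rgs4* (-0.82), which encodes a regulator of G protein signalling, ran opposite to it. Among all genes outside the 10, the most alike were *Wdr20* (0.98), *Pibf1* (0.98), *Irf2bp2* (0.98), *Tenm3* (0.97), *Dusp4*, *Pkd1* (0.97), *Tenm2* (0.96), *Prr14l* (0.96), *Irf2bpl* (0.96) and *Qtrt1* (0.96). Of these, *Dusp4* spanned 1.78-fold over the animals and *Wdr20* 1.20-fold.

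Markers of tissue next to the cortex moved with part of this pattern. The 6 hippocampal markers summed to 16.2 FPKM in CrT-/y animal 2 and 12.9 FPKM in CrT+/y animal 3, against 5.53 to 7.56 FPKM in the other 5 animals, with none of the 6 at 0 in any animal and 3 of them tested. CrT-/y animal 2 was also the highest CrT-/y animal for all 10 immediate early genes, and CrT+/y animal 3 the highest wild-type animal for *Fos*, *Junb*, *Arc* and *Npas4*. However, the hippocampal sum was only 6.91 FPKM in CrT+/y animal 2, the highest wild-type animal for *Egr1*, *Egr2*, *Egr4*, *Fosb* and *Nr4a1*. The striatal sum was lowest in CrT+/y animal 1, in which 9 of the 10 genes were lowest among wild-type animals, but it was high (271.8 FPKM) in CrT-/y animal 0, in which 8 were lowest among CrT-/y animals. The part of neighbouring tissue in the shared pattern was not tested.

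In the genotype comparison, 4 of the 46 other early response genes were called (8.70%, against 10.1% of all genes), 1 higher and 3 lower, with a median change of -0.05. *Homer1*, whose short early-response isoform uncouples the postsynaptic scaffold, measured 46.7, 44.5, 41.8 and 40.8 FPKM in CrT-/y animals 0 to 3 and 75.7, 82.3 and 58.5 FPKM in CrT+/y animals 1 to 3. The genotypes did not overlap, and *Homer1* fell by 0.72 on the log2 scale (SE 0.11, limma adjusted p = 0.025), a call kept under all 20 alternatives. The gene-level value does not tell the short isoform from the long ones. Its correlation with the shared animal profile was -0.07. *Klf10*, an early gene of the TGF-β response, fell from 19.9 ± 3.79 FPKM (SD, n = 3) to 12.9 ± 2.53 FPKM (SD, n = 4; -0.63, limma adjusted p = 0.063). *Ier5* fell by 0.26 on the log2 scale (limma adjusted p = 0.067), and *Sgk1*, a kinase gene induced by glucocorticoids, rose from 24.3 ± 1.08 FPKM (SD, n = 3) to 33.0 ± 5.49 FPKM (SD, n = 4; 0.43, limma adjusted p = 0.074). The calls of *Klf10*, *Ier5* and *Sgk1* were lost in 7, 13 and 6 of the 20 alternatives, with adjusted p up to 0.15, 0.17 and 0.20. *Homer1* was the 1 lower call left without CrT-/y animal 0, 1 or 3 or CrT+/y animal 1 or 2, and no higher call was left without CrT-/y animal 1 or 2 or CrT+/y animal 1 or 2. Calls over all tested genes moved as well, from 0.49% without CrT-/y animal 1 to 28.7% without CrT+/y animal 3.

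Of 26 delayed and late activity-regulated genes, 25 were tested, all except *Baz1a*, and 6 were called (24%, against 10.1% of all genes), 2 higher and 4 lower. Their median change was -0.16, and 18 of 25 (72%) lay below 0. Over all tested genes the median was -0.03, and 58.2% lay below 0. *Bdnf*, which encodes the neurotrophin released by active excitatory neurons, measured 8.45, 7.20, 9.42 and 7.01 FPKM in CrT-/y animals 0 to 3 and 11.8, 12.6 and 9.98 FPKM in CrT+/y animals 1 to 3. Its genotypes did not overlap, although the highest CrT-/y animal and the lowest wild-type animal lay close together, and it fell by 0.51 on the log2 scale (SE 0.12, limma adjusted p = 0.054). *Gpr3*, which encodes a constitutively active Gs-coupled receptor, fell from 5.56 ± 0.902 FPKM (SD, n = 3) to 3.37 ± 0.611 FPKM (SD, n = 4; limma adjusted p = 0.047). *Nrgn*, the gene of the calmodulin-binding postsynaptic protein neurogranin, fell by 0.37 (limma adjusted p = 0.068) and *Rgs7bp* by 0.26 on the log2 scale (limma adjusted p = 0.049). *Nrgn* is also 1 of the 7 excitatory neuron markers. *Kcnj4*, which encodes an inward rectifier potassium channel, rose from 50.9 ± 5.68 FPKM (SD, n = 3) to 71.6 ± 4.91 FPKM (SD, n = 4; 0.49, limma adjusted p = 0.028), and *Pdyn*, the prodynorphin gene, rose by 0.54 on the log2 scale (limma adjusted p = 0.064). *Pdyn* was lowest (7.69 FPKM) in CrT+/y animal 1, which had the lowest striatal marker sum. It was highest (15.3 FPKM) in CrT-/y animal 3, which had the lowest striatal sum of the CrT-/y animals. The part of striatal tissue in these changes was not tested. Without CrT-/y animal 1 none of the 6 was called, without CrT+/y animal 1 there was 1 higher and 0 lower, without CrT-/y animal 2 or 3 there were 1 higher and 2 lower, and without CrT+/y animal 3 there were 2 higher and 7 lower calls. The fits without CrT-/y animal 1, 2 or 3 called 0.49%, 1.72% and 2.64% of all tested genes. Those without CrT+/y animal 1 or 3 called 1.90% and 28.7%.

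Upstream of the immediate early genes, 4 of 32 genes of kinases, phosphatases and transcription factors were called (12.5%, against 10.1% of all genes), 1 higher and 3 lower. *Creb1*, which encodes the CRE-binding protein, measured 11.1, 11.0, 10.6 and 11.0 FPKM in CrT-/y animals 0 to 3 and 14.9, 14.5 and 12.1 FPKM in CrT+/y animals 1 to 3. Every CrT-/y animal lay below every wild-type animal, and the gene fell by 0.33 on the log2 scale (SE 0.077, limma adjusted p = 0.054). *Rps6ka2*, a ribosomal S6 kinase gene, fell from 20.0 ± 0.0436 FPKM (SD, n = 3) to 16.9 ± 0.369 FPKM (SD, n = 4; limma adjusted p = 0.042), and *Ppp3r1*, the calcineurin regulatory subunit gene, fell by 0.25 (limma adjusted p = 0.0996). *Rps6ka4*, which encodes the CREB and histone kinase MSK2, rose by 0.23 on the log2 scale (limma adjusted p = 0.069). *Srf* was not called (-0.04, limma adjusted p = 0.78). None of the 4 calls remained without CrT-/y animal 1, 2 or 3 or without CrT+/y animal 1, and 15 genes were called without CrT+/y animal 3 (4 higher and 11 lower). In the same order, these fits called 0.49%, 1.72%, 2.64%, 1.90% and 28.7% of all tested genes.

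Of 17 partner, co-repressor and inhibitor genes, 16 were tested, all except *Batf3*, and 3 were called lower (18.8%, against 7.25% of all genes), none higher. *Jdp2*, which encodes a repressor that dimerises with Jun proteins, fell from 29.1 ± 5.14 FPKM (SD, n = 3) to 19.7 ± 0.566 FPKM (SD, n = 4; -0.55, limma adjusted p = 0.034). *Ncor1*, a nuclear receptor co-repressor gene, fell by 0.23 on the log2 scale (limma adjusted p = 0.080), a call that was lost in 14 of the 20 alternatives. *Nab2*, whose product represses Egr proteins and is itself induced by them, measured 11.5, 17.0, 16.6 and 13.9 FPKM in CrT-/y and 10.8, 16.0 and 13.8 FPKM in CrT+/y animals, with overlapping genotypes. Without CrT-/y animal 1 none of the 3 was called, without CrT-/y animal 0, 2 or 3 or CrT+/y animal 1 or 2 there was 1 call, and without CrT+/y animal 3 there were 6. Of all tested genes, 0.49% were called without CrT-/y animal 1 and 28.7% without CrT+/y animal 3, and 1.72% to 5.81% in the other fits.

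**Figure D5:**
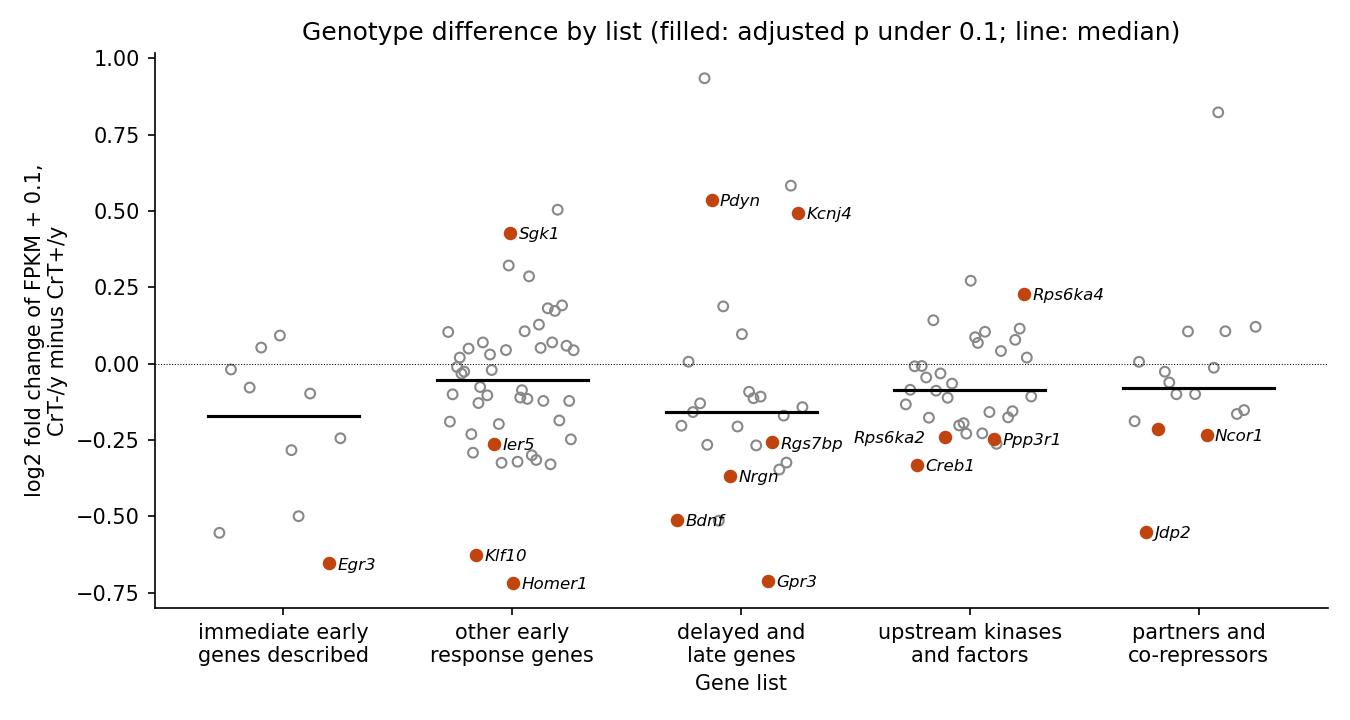
Log2 change of FPKM + 0.1, CrT-/y minus CrT+/y (vertical axis), of each tested gene in the 5 lists (horizontal axis), with filled points for genes called at an adjusted p under 0.1 in limma and a line for each list's median. The medians lie between -0.17 and -0.05, and Homer1, Gpr3 and Egr3 are the lowest called genes.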

How the data were processed

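Total RNA of the cortex of 7 mice was made into mRNA libraries and sequenced in paired-end mode. The authors aligned reads to mm10 with the Tuxedo protocol, counted uniquely aligned reads on known exons and junctions, and deposited 1 table of FPKM per gene and animal (the submitters' processing notes name Bowtie and Cuffnorm). Fragment counts are not in the table, so the depth behind each FPKM value is unknown and no interval of counting error was given. The labels name 7 animals, and the groups come from their genotypes.

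Genes averaging 1 FPKM or more were tested on log2(FPKM + 0.1) with limma 3.58.1 (R 4.3.3), with genotype as the only term, a variance trend, and p-values adjusted by Benjamini-Hochberg across the 12988 genes. Calls are adjusted p under 0.1. Of these genes, 3252 had an unadjusted p under 0.05 and 1318 were called. The procedure was tested on simulated data. Descriptions used Python 3.11.15, numpy 2.4.6 and pandas 2.3.3. Positions come from GENCODE M21 (23310 symbols matched, 682 by synonym, 354 unmatched) and promoters from RefSeq. The 20 alternatives were other pseudocounts, filters, scalings, a length correction, other variance settings, a replicate block and leaving out each animal.

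The genes, lists and settings were chosen with earlier results of these data known. The text names all 10 genes, the called genes and the 3 smallest p-values of each list, *Slc6a8* and the 10 genes most alike. Other genes, such as those named for their correlation, *Dusp1*, *Nab2*, *Srf* and the called markers, were chosen after their values were seen. Of the called genes, 1 partner gene and 1 marker gene are not reported here.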

Additional observations from a re-analysis of the deposited data

Results flagged for a closer look

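*Creb1* in CrT-/y animal 2 measured 10.6 FPKM, apart from the 11.0 to 11.1 FPKM of the other 3 CrT-/y animals, so that its gap took 0.877 of the range of the group. This was 1 of 38 groups of 4 animals examined for a sample far from the rest, and chance marks about 1 in 20 such groups. The distance is small beside the 12.1 to 14.9 FPKM of the CrT+/y animals.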

How the results depend on the processing

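*Egr3* was called lower and no other of the 10 genes was called under every alternative run. Of the uncalled genes, 6 changed sign in some setting, and the cause was not tested. *Fos* gave 0.021 after quantile normalization, 0.031 after upper quartile scaling, 0.018 after median centring, 0.035 after centring on neuronal markers, 0.13 with array weights and 0.22 with the replicate block, and *Egr2* gave 0.41 with the block. With 1 animal left out, the changes ranged from -0.51 to 0.41 for *Egr2*, -0.23 to 0.28 for *Egr4*, -0.39 to 0.22 for *Fos*, -0.35 to 0.26 for *Fosb*, -0.17 to 0.24 for *Junb* and -0.52 to 0.0048 for *Npas4*. *Egr2*, *Fosb* and *Gpr3* have no value with a filter of 5 FPKM.

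No pairing of the animals by replicate numbers 1 to 3 was seen. Same-numbered animals had correlations of -0.078, 0.046 and -0.051, and 2 of 6 animals correlated best with their own number. A pairing by litter or batch was not tested. The fit with the replicate block also takes CrT-/y animal 0, which has no partner, out of the contrast, so its changes equal those without that animal. It gave 576 calls over all genes, against 614 without animal 0 and no block and 1318 with all animals. *Egr3* stayed called (-0.65, adjusted p = 0.045), and the late genes had 2 lower calls, the upstream genes 0 higher and 0 lower and the partners 1 lower.

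Among other early genes, higher calls were 0 with no filter and 0 without a variance trend, and lower calls were 1 with no filter and 1 with neuronal centring. The late genes had 1 higher call with no filter. The upstream genes had 2 higher and 7 lower calls with array weights and 0 lower with neuronal centring. The partners had 1 higher call with no filter or a filter of 0.1 FPKM, and 1 lower call with no filter, quantile normalization, upper quartile scaling, either centring, length correction or no variance trend. With 1 animal left out, higher calls ranged from 0 to 2 and lower from 1 to 4 for other early genes, 0 to 3 and 0 to 7 for late genes, 0 to 4 and 0 to 11 for upstream genes, and lower calls from 0 to 6 for partners. Over all genes, calls were 730 with no filter, 783 with neuronal centring (456 higher and 327 lower) and 64 without CrT-/y animal 1, 223 without animal 2, 342 without animal 3 and 614 without animal 0. They were 247 without CrT+/y animal 1, 753 without animal 2 and 3736 without animal 3. Higher and lower calls were 528 and 555 with quantile normalization, 490 and 527 with median centring, and 468 and 645 with length correction. With the depth unknown, counting error could not be separated from the spread between animals.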

Other observations

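*Per1*, a core clock gene that is also induced by activity, followed the shared animal profile (correlation 0.85 over 7 animals, genotype means removed). It measured 16.6, 34.4, 36.3 and 19.5 FPKM in CrT-/y animals 0 to 3 and 21.7, 33.5 and 19.9 FPKM in CrT+/y animals 1 to 3, with both genotypes spread over the same range. Members of the other early families differed in how closely they followed: in the Klf family *Klf4* (0.95), *Klf10* (0.86) and *Klf2* (0.84) ran with the profile and *Klf6* (-0.69) against it, and among the dual-specificity phosphatases *Dusp4*, *Dusp1*, *Dusp6* (0.90) and *Dusp5* (0.85) ran with it and *Dusp14* (-0.45) against it. These genes were named after their values were seen, and no test was run on them.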
